A study of Homo sapiens with 27 samples.

Results

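The genes described here are the 3 transforming growth factor beta ligands (TGFB1, TGFB2, TGFB3), their 3 receptors (TGFBR1, TGFBR2, TGFBR3) and the 4 latent TGFB binding proteins (LTBP1 to LTBP4). They were taken by gene symbol from a table of 40487 rows, which held 36536 different symbols or gene identifiers once rows sharing a symbol were summed. All 10 were found, each in 1 row, and all 10 passed the filter on low counts, which left 15575 genes in the tests. TGFB2 and TGFB3 were the least counted, with as few as 8 counts in a T0 library for TGFB2 and 19 in a library given all 3 ligands for TGFB3.

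The study measured polyadenylated RNA in MCF10A cells, an established human line of non-tumorigenic breast epithelium, after growth factors were given alone or combined. Cells were grown in medium with horse serum, EGF at 20 ng/ml, hydrocortisone, cholera toxin and insulin on collagen-coated plates, then kept 18 h without growth factors before fresh medium of that kind was added with the ligands. The 9 groups of 3 libraries were T0 (no ligand, 0 h), PBS (vehicle, 24 h), and at 24 h EGF (epidermal growth factor), OSM (oncostatin M, an interleukin-6 family cytokine), TGFB, EGF+OSM, EGF+TGFB, OSM+TGFB and EGF+OSM+TGFB, each ligand at 10 ng/ml. All groups came from this 1 line and shared the starvation. The labels do not name the TGFB isoform that was added, nor say whether the replicates were separate cultures, so the p-values measure the spread between these samples, which may be technical.

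Library totals ran from 30.1 to 52.9 M counts (M, mega; median 39.5 M), so spread between replicates, not counting error, limits most values. Markers of basal mammary cells (KRT5, KRT14, KRT17, TP63, ITGB4, ITGA6) summed to 10609 to 26242 CPM (counts per 1 M counts, after TMM scaling of library sizes) over the 27 libraries. Of 6 fibroblast markers, COL1A1 and DCN carried a sum of 12.8 to 213 CPM, while COL1A2, COL3A1, PDGFRA and LUM had at most 14 counts in any library. That sum was 128 to 133 CPM in PBS, 204 to 213 in TGFB and 12.8 to 14.99 in EGF+OSM. PTPRC, CD3E and HBB (blood) and CDH5 (endothelium) had at most 10 counts. CD14 carried the blood sum, 1.90 to 79.5 CPM. The endothelial sum was 0.754 to 35.3 CPM, in which KDR reached 31.3 CPM, VWF 3.52 and PECAM1 2.06. With TGFB alone, PMEPA1, a known TGFB response gene, went from 46.4 ± 2.13 to 477 ± 27.9 CPM (SD, n = 3).

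TGFB ligands are made as precursors whose propeptide stays wrapped around the mature dimer and keeps it latent. LTBP1, LTBP3 and LTBP4 bind that propeptide covalently and tether the complex to fibrillin and fibronectin in the matrix. There integrins can pull TGFB1 free. LTBP2 shares the domain plan but is not known to bind the latent complex. Freed ligand binds the type II receptor kinase TGFBR2, which phosphorylates the type I kinase TGFBR1, which phosphorylates SMAD2 and SMAD3. TGFBR3, or betaglycan, is a co-receptor without a kinase that presents ligand, TGFB2 above all, to TGFBR2. In mammary epithelium the pathway is known for arrest of growth and for mesenchymal change. Only RNA was measured, so no value here is a level of protein or of active ligand, and in bulk samples fewer cells of a type and less RNA per cell cannot be told apart.

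Each treatment was compared with PBS at 24 h with edgeR (quasi-likelihood test), p-values were adjusted by Benjamini-Hochberg over the 15575 genes, and genes under an adjusted p of 0.05 were called. These comparisons share the PBS libraries. TGFB alone called 8 of the 10 genes, 6 higher and 2 lower, where it called 35.6% of all genes tested, 19.9% higher and 15.8% lower. With libraries left out in turn, the count of genes called with TGFB alone ran from 6 to 9. The calls of TGFBR2, LTBP3 and LTBP4 were each lost in some of these fits. EGF alone called 9, 5 higher and 4 lower, against 73.5% of all genes (34.9% higher, 38.6% lower). OSM alone called 6, 4 higher and 2 lower, against 63.4% (33.5% higher, 29.8% lower). With EGF or OSM most genes of the table were called, so a call there says little by itself, and the share of members called with OSM was near that of all genes.

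In the combinations against PBS, 7 of the 10 were called with EGF+OSM (77.2% of all genes), 9 with EGF+TGFB (73.7%), 9 with OSM+TGFB (66%) and 9 with all 3 ligands (74.4%). The median log2 fold change of the 10 genes was 0.34 with TGFB, 0.066 with EGF and 0.21 with OSM, beside -0.0087, -0.072 and 0.0023 over all genes. These medians hide changes in both directions: LTBP1, LTBP2 and TGFBR1 were higher than in PBS in all 7 treatments and TGFBR3 was lower in all 7, each past the test. The map of changes against PBS shows these 4 rows in 1 colour throughout.

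**Figure D1:**
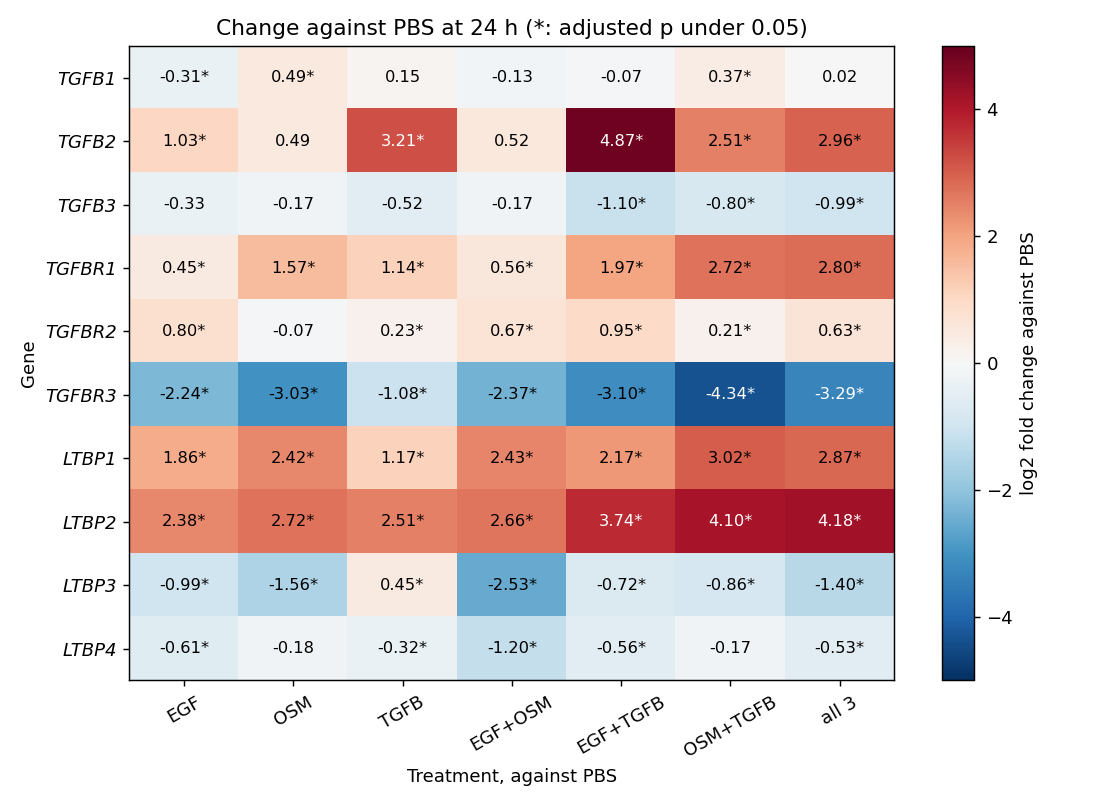
Log2 fold change of each of the 10 genes (rows) in each of the 7 treatments (columns) against PBS at 24 h, from 3 libraries per group; colour and printed value give the change, and an asterisk marks an adjusted p under 0.05. LTBP1, LTBP2 and TGFBR1 are higher than PBS and TGFBR3 lower in every column, while LTBP3 is higher with TGFB alone and lower in the other 6.

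TGFB was then compared directly with its matched group in each background: alone against PBS, and added to EGF, to OSM or to EGF+OSM. Added to EGF it called 8 of the 10 genes (54.6% of all genes tested), to OSM 7 (51.6%) and to EGF+OSM 8 (61.1%). TGFB2, TGFBR1, LTBP1 and LTBP2 rose and TGFBR3 fell in all 4 of these comparisons. The sequences of the 250 bases before a start site of each of these 5 genes follow, since they are the members called in all 4. They are from RefSeq on GRCh38.p14, written 5′ to 3′ on the strand of the gene. Capitals mark AGAC, the core that SMAD proteins bind, read on either strand (GTCT on the other), and TGACGTCA, the cyclic AMP response element.
TGFB2, chr1:218345086-218345335, plus strand: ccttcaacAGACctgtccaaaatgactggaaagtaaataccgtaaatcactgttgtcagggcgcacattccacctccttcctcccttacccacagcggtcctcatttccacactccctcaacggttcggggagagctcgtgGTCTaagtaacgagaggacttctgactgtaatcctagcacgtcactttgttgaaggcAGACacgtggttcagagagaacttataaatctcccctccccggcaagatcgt
TGFBR1, chr9:99104863-99105112, plus strand: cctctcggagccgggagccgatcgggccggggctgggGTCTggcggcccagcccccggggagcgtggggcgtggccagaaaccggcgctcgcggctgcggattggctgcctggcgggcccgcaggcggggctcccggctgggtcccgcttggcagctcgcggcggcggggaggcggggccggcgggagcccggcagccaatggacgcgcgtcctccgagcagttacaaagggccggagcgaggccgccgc
TGFBR3, chr1:91886152-91886401, minus strand: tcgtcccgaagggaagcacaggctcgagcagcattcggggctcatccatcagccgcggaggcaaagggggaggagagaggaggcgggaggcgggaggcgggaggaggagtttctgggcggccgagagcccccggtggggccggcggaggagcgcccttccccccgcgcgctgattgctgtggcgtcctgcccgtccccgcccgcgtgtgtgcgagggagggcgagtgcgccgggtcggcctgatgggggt
LTBP1, chr2:32946703-32946952, plus strand: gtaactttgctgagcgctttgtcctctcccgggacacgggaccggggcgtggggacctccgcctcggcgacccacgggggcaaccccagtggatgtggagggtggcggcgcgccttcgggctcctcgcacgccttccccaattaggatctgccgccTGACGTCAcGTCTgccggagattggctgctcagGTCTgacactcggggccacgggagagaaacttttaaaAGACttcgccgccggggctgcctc
LTBP2, chr14:74612238-74612487, minus strand: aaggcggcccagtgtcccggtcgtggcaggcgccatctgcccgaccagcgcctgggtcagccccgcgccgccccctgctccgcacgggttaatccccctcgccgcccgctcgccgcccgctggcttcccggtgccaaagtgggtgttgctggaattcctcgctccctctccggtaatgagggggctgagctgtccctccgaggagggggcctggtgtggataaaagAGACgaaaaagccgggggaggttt

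AGAC occurred 3 times before TGFB2, 3 times before LTBP1, and once each before TGFBR1 and LTBP2. It did not occur in the TGFBR3 window. Each window is that of the RefSeq entry whose start lay nearest the start of the canonical transcript. TGFBR1 had 8 entries, LTBP1 3, and TGFB2, TGFBR3 and LTBP2 1 each, and other start sites are not described. The TGFBR1 and TGFBR3 windows lie within the gene spans given below, and the LTBP2 window partly does. Over 34943 RefSeq windows of the same length, 77.5% held AGAC at least once and 20.9% at least 3 times, so these letters are common. TGACGTCA was in the LTBP1 window and in 1.63% of all windows, followed after 1 base by a GTCT. The joined pair GTCTAGAC (0.183% of all windows) and the AP-1 site TGANTCA (6.59%) were in none of the 5. The TGFB2 window, at 50.4% G and C, was the poorest in those bases of the 5, and TGFBR1, at 79.6%, the richest.

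TGFB1 was the dominant ligand transcript and moved little. Its gene lies on chromosome 19 (41301587 to 41353922, minus strand, GRCh38). Its level in the 3 PBS libraries was 65.8, 75.1 and 72.8 CPM, in OSM 109, 103 and 87.0, in EGF 59.3, 54.8 and 57.9, and in TGFB 81.5, 75.6 and 80.1. All OSM libraries lay above all PBS libraries and all EGF libraries lay below them, and the TGFB libraries lay just above PBS. The log2 fold change was 0.49 ± 0.087 (SE) with OSM (edgeR adjusted p = 2.98e-05) and -0.31 ± 0.088 with EGF (0.00261). With TGFB it was 0.15 ± 0.087 and did not pass (0.195), though it passed when only these groups were fitted (0.0424).

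In the combinations TGFB1 was at 92.3 ± 7.25 CPM with OSM+TGFB, which was called against PBS (0.37 ± 0.087), and OSM and OSM+TGFB overlapped each other at the top of the order. It was at 65.1 ± 8.57 with EGF+OSM, 67.8 ± 2.29 with EGF+TGFB and 72.5 ± 3.95 with all 3 ligands, each overlapping PBS (71.2 ± 4.84). The change with EGF+OSM was -0.13 ± 0.088 and was not called (edgeR adjusted p = 0.175). It passed under upper-quartile scaling (-0.22, 0.0323) and without EGF+OSM replicate 1 (-0.24, 0.0152). T0, at 64.0 ± 6.28 CPM of TGFB1, overlapped both PBS and EGF. From lowest to highest group mean TGFB1 covered 1.74-fold, the smallest range of the 10 genes. TGFB added to EGF gave a rise of 0.24 ± 0.088 (edgeR adjusted p = 0.0224), which no longer passed when EGF replicate 2 (0.0842) or EGF+TGFB replicate 2 (0.0642) or 3 (0.135) was left out.

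TGFB2 started near the limit of counting and rose furthest. It lies on chromosome 1 (218345336 to 218444619, plus strand). In PBS it was at 0.775, 1.14 and 0.489 CPM, from 20 to 53 counts per library, and in TGFB at 7.10, 8.00 and 7.48 CPM. With EGF+TGFB it was at 27.4, 27.1 and 16.8 CPM, from 491 to 1339 counts. Every library given TGFB, in any combination, lay above every library without it. The lowest of them was an OSM+TGFB library at 3.90 CPM and the highest of the others an EGF library at 1.80.

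Against PBS, TGFB2 rose by 3.21 ± 0.26 on the log2 scale with TGFB (9.24-fold; edgeR adjusted p = 5.4e-10) and by 4.87 ± 0.26 with EGF+TGFB (29.3-fold; 2.19e-14). EGF alone gave 1.80, 1.70 and 1.46 CPM, above all PBS libraries, and a rise of 1.03 ± 0.29 (0.00278). OSM alone (1.13 ± 0.169 CPM) and EGF+OSM (1.15 ± 0.413) overlapped PBS and were not called (0.49 and 0.52 on the log2 scale). Without PBS replicate 2 both passed, at 0.85 and 0.88 (adjusted p = 0.0384 and 0.0251). OSM+TGFB gave 3.90, 5.37 and 4.65 CPM and all 3 ligands 7.04, 5.92 and 5.99, both under TGFB alone. All 3 ligands lay only just under it, at 7.04 against 7.10 CPM at the nearest. Neither group was tested directly against TGFB alone. The 4 groups with TGFB did not overlap one another, in the order EGF+TGFB, TGFB, all 3 ligands, OSM+TGFB.

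The TGFB effect on TGFB2 was smaller with OSM than alone by 1.18 ± 0.38 on the log2 scale (a difference of -1.18, edgeR adjusted p = 0.0255). That call was lost without the filter on low counts (0.0673) and when any of 5 libraries was left out: PBS replicate 1 or 3, OSM replicate 2 or 3, or OSM+TGFB replicate 1 (0.0523 to 0.0858). With EGF the TGFB effect was 3.84 ± 0.24, which differed from its effect alone by 0.64 ± 0.36 and did not pass (0.197). Without PBS replicate 2 that difference was 0.27. With EGF+OSM the TGFB effect was 2.44 ± 0.25, a difference of -0.77 ± 0.38 that did not pass (edgeR adjusted p = 0.104). It passed without PBS replicate 2 (-1.13, 0.0259). On the annotation, TGFB2 shares 1371 exonic bases (22.7% of its own) with TGFB2-OT1 on the same strand and 701 with TGFB2-AS1 on the other. TGFB1, TGFB3, LTBP1, LTBP2 and LTBP3 each share exonic bases (from 146 in LTBP3 upward) with a gene on the other strand. Whether such transcripts add to the counts was not tested.

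TGFB3 was low throughout. Its gene lies on chromosome 14 (75958097 to 75983011, minus strand). The 27 libraries ran from 0.662 to 2.32 CPM, or 19 to 99 counts. PBS was at 1.30, 2.07 and 2.32 CPM, EGF+TGFB at 0.990, 0.729 and 0.960, OSM+TGFB at 1.10, 1.15 and 1.02, and all 3 ligands at 1.08, 0.662 and 1.10. These 3 groups lay below all PBS libraries, while TGFB alone (1.10, 1.01 and 1.88) overlapped them. Neighbouring groups overlapped at every step of the order.

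The log2 fold change of TGFB3 against PBS was -1.10 ± 0.28 with EGF+TGFB (edgeR adjusted p = 0.000973), -0.80 ± 0.27 with OSM+TGFB (0.0121) and -0.99 ± 0.28 with all 3 ligands (0.00247). The OSM+TGFB call was lost without PBS replicate 3 (0.0684). With TGFB alone the change was -0.52 ± 0.27 (0.136), and it passed when PBS replicate 1 (0.0449) or TGFB replicate 3 (0.0237) was left out. EGF, OSM and EGF+OSM were not called.

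**Figure D2:**
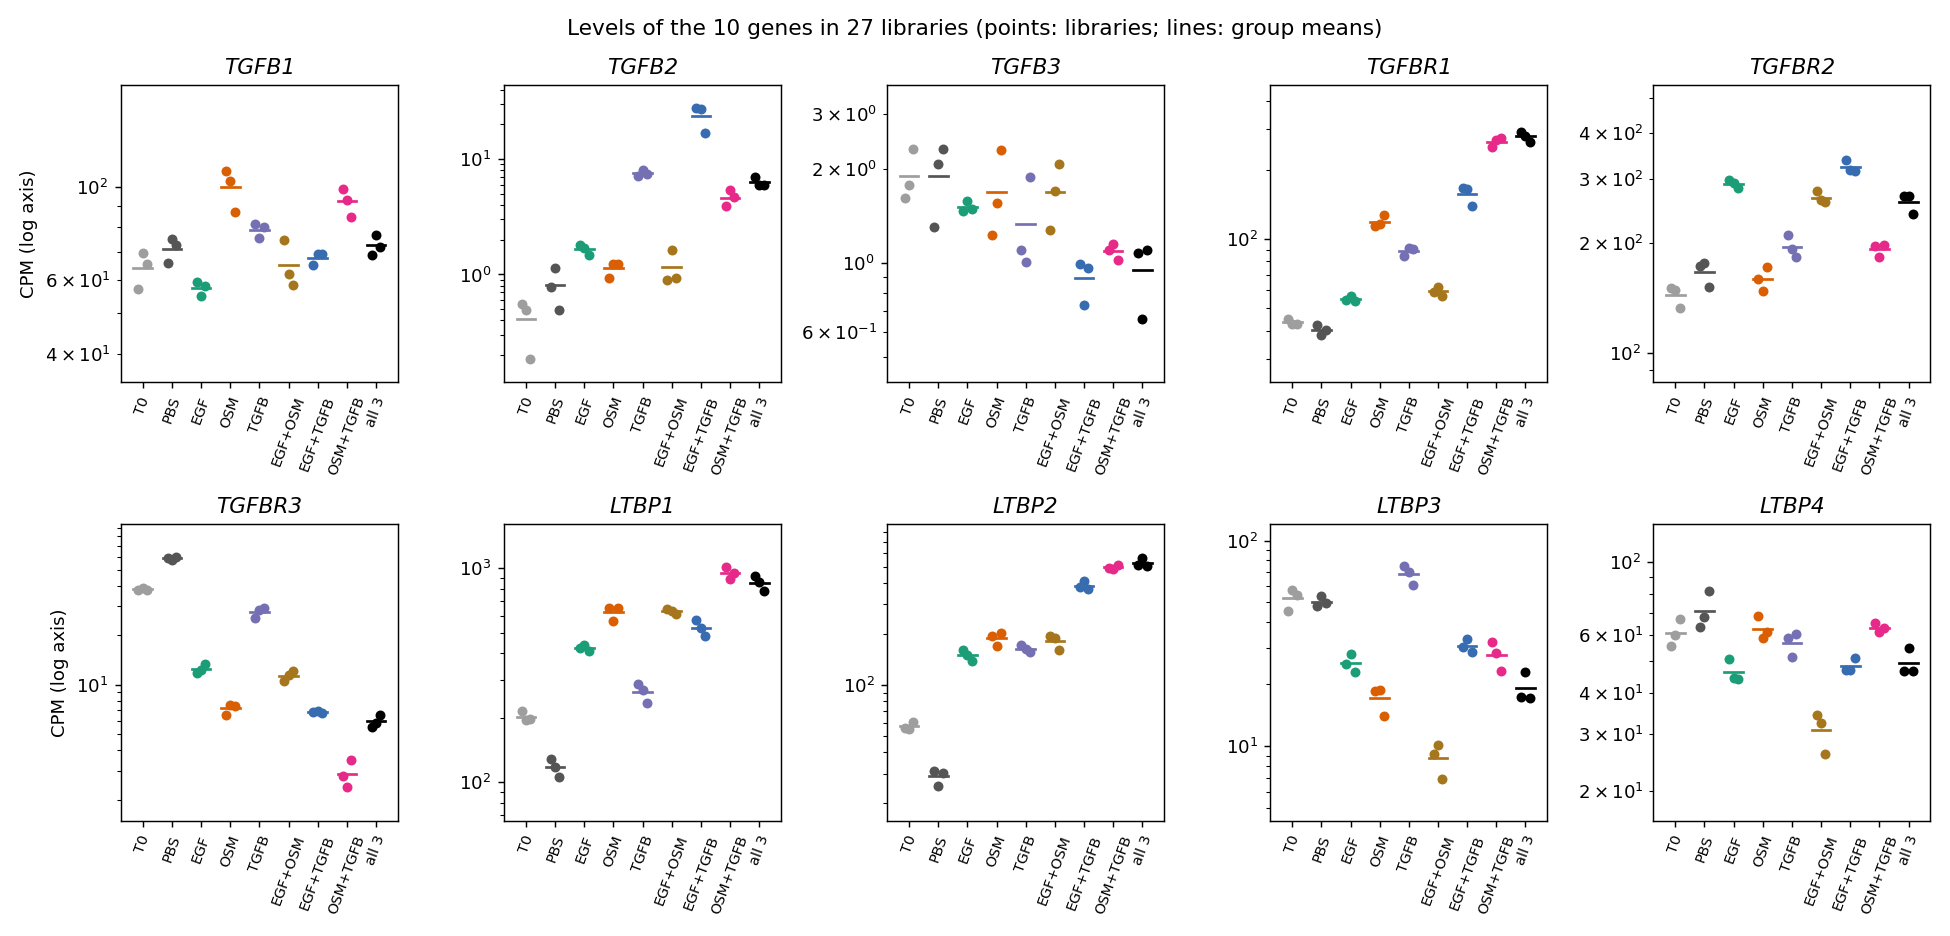
Level of each of the 10 genes (panels) in the 9 groups in TMM-scaled CPM on a log axis; points are the 3 libraries of a group and the line is their mean. TGFB2 is highest in EGF+TGFB (16.8 to 27.4 CPM), TGFBR3 is highest in PBS (57.7 to 59.6 CPM), and TGFB1 varies least.

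Among the receptors, the type I receptor TGFBR1 rose with each ligand and most with combinations that held TGFB. It lies on chromosome 9 (99104038 to 99154192, plus strand). The level was 42.3, 38.1 and 40.1 CPM in PBS, 54.2, 56.4 and 53.5 in EGF, 84.4, 91.0 and 90.1 in TGFB, and 114, 117 and 127 in OSM. These 4 groups did not overlap. The log2 fold changes were 0.45 ± 0.065 with EGF (edgeR adjusted p = 9.62e-07), 1.14 ± 0.065 with TGFB (3.21e-13) and 1.57 ± 0.065 with OSM (1.15e-16).

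With OSM+TGFB, TGFBR1 was at 251, 269 and 276 CPM, and with all 3 ligands at 293, 282 and 264. These groups overlapped each other and lay above all other libraries, 6.61-fold and 6.97-fold over PBS. EGF+OSM, at 59.0, 62.1 and 56.6 CPM, lay just above EGF alone, without overlap, and under OSM alone. Adding OSM to EGF therefore left TGFBR1 1.46 ± 0.091 log2 units below the sum of the 2 single effects (edgeR adjusted p = 3.69e-12).

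The effect of TGFB on TGFBR1 depended on the background. It was 1.14 ± 0.065 alone, 1.15 ± 0.063 with OSM, 1.52 ± 0.064 with EGF and 2.24 ± 0.065 with EGF+OSM. The effect with EGF exceeded that alone by 0.38 ± 0.090 (edgeR adjusted p = 0.00225) and the effect with EGF+OSM by 1.10 ± 0.090 (8.88e-10). With OSM the difference was 0.014 ± 0.090 and did not pass (0.934).

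TGFBR2, the type II receptor, was the most abundant receptor transcript and followed EGF. It lies on chromosome 3 (30606601 to 30694142, plus strand). It was at 173, 177 and 152 CPM in PBS, 297, 292 and 283 in EGF, and 339, 318 and 315 in EGF+TGFB. The 4 groups with EGF lay between 241 and 339 CPM, above all other libraries, of which the highest was a TGFB library at 211. The log2 fold change was 0.80 ± 0.065 with EGF (edgeR adjusted p = 3.93e-11) and 0.95 ± 0.066 with EGF+TGFB (1.07e-12). OSM alone (159.9, 148 and 172 CPM) overlapped PBS and was not called (-0.066 ± 0.065).

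The changes of TGFBR2 with TGFB were small. TGFB added to OSM gave the largest rise, 0.27 ± 0.065 (edgeR adjusted p = 0.00108), which passed in every alternative run (adjusted p at most 0.0132). With TGFB alone it was at 211, 192 and 184 CPM, just above PBS, a rise of 0.23 ± 0.065 (edgeR adjusted p = 0.00798) that was lost without PBS replicate 3 (0.0767) or TGFB replicate 1 (0.0724). With OSM+TGFB the rise over PBS, 0.21 ± 0.065, was lost under upper-quartile scaling (0.12, 0.117) and without PBS replicate 3 or OSM+TGFB replicate 1 or 3 (0.0744, 0.052 and 0.0572). TGFB added to EGF gave 0.15 ± 0.065 (0.046), which was lost under 4 of the other settings and without any 1 of the 6 libraries. TGFB added to EGF+OSM gave -0.037 ± 0.065, lower than the effect alone by 0.26 ± 0.092 (adjusted p = 0.0224), a difference that was lost without any 1 of 4 libraries: PBS replicate 3, TGFB replicate 1, EGF+OSM replicate 1 or EGF+OSM+TGFB replicate 3 (0.0572 to 0.0855).

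TGFBR3, the co-receptor, fell with every treatment. It lies on chromosome 1 (91680343 to 91906335, minus strand). The level in PBS was 59.0, 57.7 and 59.6 CPM, in TGFB 25.5, 28.6 and 29.2, in EGF 11.8, 12.3 and 13.4, and in OSM 6.60, 7.59 and 7.40. The groups did not overlap, and PBS was the highest of all 9. On the log2 scale TGFBR3 changed by -1.08 ± 0.077 with TGFB (edgeR adjusted p = 2.04e-11), -2.24 ± 0.081 with EGF (1.36e-17) and -3.03 ± 0.086 with OSM (5.65e-20).

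With OSM+TGFB TGFBR3 was at 2.78, 2.38 and 3.51 CPM, the lowest group, 20.3-fold under PBS. The effect of TGFB was -1.08 ± 0.077 alone, -0.86 ± 0.088 on EGF, -1.32 ± 0.10 on OSM and -0.92 ± 0.092 on EGF+OSM. None of the 3 differences from the effect alone passed (adjusted p = 0.161, 0.208 and 0.295, edgeR). The difference with OSM, -0.24, was -0.42 and passed without OSM+TGFB replicate 3 (0.0192). EGF+OSM (10.5, 11.5 and 12.1 CPM) overlapped EGF alone and was above OSM alone. The pair was thus 2.89 ± 0.12 log2 units less low than the sum of both single effects (edgeR adjusted p = 2.19e-15).

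LTBP1 was the most abundant of the latent binders. It lies on chromosome 2 (32946953 to 33399509, plus strand). It was at 128, 118 and 105 CPM in PBS, 287, 268 and 233 in TGFB, 424, 437 and 409 in EGF, and 654, 564 and 654 in OSM. No library of these groups overlapped another group. LTBP1 changed on the log2 scale by 1.17 ± 0.084 with TGFB (edgeR adjusted p = 3.6e-11), 1.86 ± 0.085 with EGF (1.53e-15) and 2.42 ± 0.087 with OSM (1.22e-17).

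EGF+OSM held LTBP1 at 647, 630.2 and 608 CPM, overlapping OSM alone, 1.85 ± 0.12 log2 units under the sum of the single effects (edgeR adjusted p = 7.38e-12). OSM+TGFB (951 ± 60.3 CPM) and all 3 ligands (852 ± 69.7) overlapped each other and were the highest groups. TGFB added 0.31 ± 0.082 to EGF, 0.61 ± 0.082 to OSM and 0.44 ± 0.082 to EGF+OSM. Each of these was smaller than the effect of TGFB alone, with differences of -0.86 ± 0.12, -0.56 ± 0.12 and -0.73 ± 0.12 (edgeR adjusted p = 6.96e-06, 0.00102 and 1.73e-05).

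LTBP2 had the widest range of the binders. It lies on chromosome 14 (74498183 to 74612378, minus strand). From 31.2, 25.2 and 30.1 CPM in PBS it was at 161, 151 and 139 in EGF, 172, 163 and 157 in TGFB, and 195, 170.4 and 204 in OSM. All libraries of the single ligands lay above PBS and T0, EGF overlapped TGFB, and TGFB overlapped OSM by 1 library. The log2 fold changes were 2.38 ± 0.084 with EGF (edgeR adjusted p = 1.2e-17), 2.51 ± 0.084 with TGFB (8.08e-17) and 2.72 ± 0.085 with OSM (5.08e-19).

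EGF+OSM held LTBP2 at 193, 190.1 and 162 CPM, above the EGF libraries and overlapping OSM, 2.45 ± 0.11 log2 units under the sum of the single effects (edgeR adjusted p = 2.66e-14). EGF+TGFB (385 ± 20.3 CPM), OSM+TGFB (495 ± 13.4) and all 3 ligands (524 ± 31.1) lay above every other group, up to 18.2-fold over PBS. TGFB added 1.36 ± 0.079 to EGF, 1.38 ± 0.079 to OSM and 1.53 ± 0.079 to EGF+OSM. These were smaller than the 2.51 of TGFB alone by 1.15 ± 0.11, 1.13 ± 0.11 and 0.98 ± 0.11 (differences of -1.15, -1.13 and -0.98, edgeR adjusted p = 6.78e-08, 1.31e-07 and 1.71e-07).

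LTBP3 and LTBP4, both known to bind latent TGFB1, did not follow LTBP1. LTBP3 lies on chromosome 11 (65538559 to 65558930, minus strand). It was at 48.0, 53.6 and 49.8 CPM in PBS, 75.5, 70.4 and 61.0 in TGFB, 25.2, 27.9 and 23.0 in EGF, 18.6, 18.8 and 13.98 in OSM, and 9.15, 10.1 and 6.93 in EGF+OSM. The TGFB libraries lay above PBS and the others below, each without overlap. The log2 fold change was -0.99 ± 0.14 with EGF (edgeR adjusted p = 1.15e-06), -1.56 ± 0.14 with OSM (2.7e-09) and -2.53 ± 0.15 with EGF+OSM (7.82e-13). The departure of EGF+OSM from the sum of both effects was 0.019 ± 0.21 and did not pass (0.959).

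With TGFB alone LTBP3 rose by 0.45 ± 0.13 (edgeR adjusted p = 0.0113), a call lost without TGFB replicate 1 (0.06). TGFB added to OSM gave 0.70 ± 0.15 and to EGF+OSM 1.13 ± 0.16 (adjusted p = 0.000339 and 1.74e-06). Added to EGF it gave 0.28 ± 0.14, which did not pass (0.104), though EGF+TGFB (30.5, 33.0 and 28.5 CPM) lay above EGF without overlap. The effect with EGF+OSM exceeded that alone by 0.68 ± 0.21 (edgeR adjusted p = 0.0105), lost without EGF+OSM+TGFB replicate 2 (0.0635). In all 3 combinations with TGFB, LTBP3 stayed under PBS.

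LTBP4 lies on chromosome 19 (40592883 to 40629818, plus strand). It was highest in PBS, at 63.2, 67.8 and 81.8 CPM, and lowest in EGF+OSM, at 34.2, 32.2 and 26.0, with the remaining 7 groups between 44.02 and 68.3. EGF+OSM was the only group apart from its neighbour in the order of means. Its log2 fold change was -1.20 ± 0.10 with EGF+OSM (edgeR adjusted p = 1.87e-10) and -0.61 ± 0.10 with EGF (8.26e-06), while OSM gave -0.18 ± 0.10 (0.125). The value with OSM was -0.25 and passed without PBS replicate 1 (0.044), and was -0.064 without PBS replicate 3. The departure of the pair from the sum was -0.41 ± 0.14 (0.0273), lost in 7 alternatives, among them upper-quartile scaling (0.0548), the absence of the filter on low counts (0.0656) and the omission of PBS replicate 1 or 2, EGF replicate 1, OSM replicate 1 or EGF+OSM replicate 3.

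The effect of TGFB on LTBP4 changed with the background. TGFB alone gave -0.32 ± 0.10 (58.6, 51.5 and 60.3 CPM; edgeR adjusted p = 0.0148), a call lost without PBS replicate 3 (0.133) or TGFB replicate 2 (0.0892) and when only these groups were fitted (0.0541). TGFB added to EGF or to OSM was not called (0.054 ± 0.10 and 0.0099 ± 0.10). Added to EGF+OSM it gave a rise of 0.67 ± 0.10 (adjusted p = 5.32e-06), to 46.5, 54.5 and 46.7 CPM. This effect exceeded that of TGFB alone by 0.99 ± 0.15 (edgeR adjusted p = 6.74e-06).

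**Figure D3:**
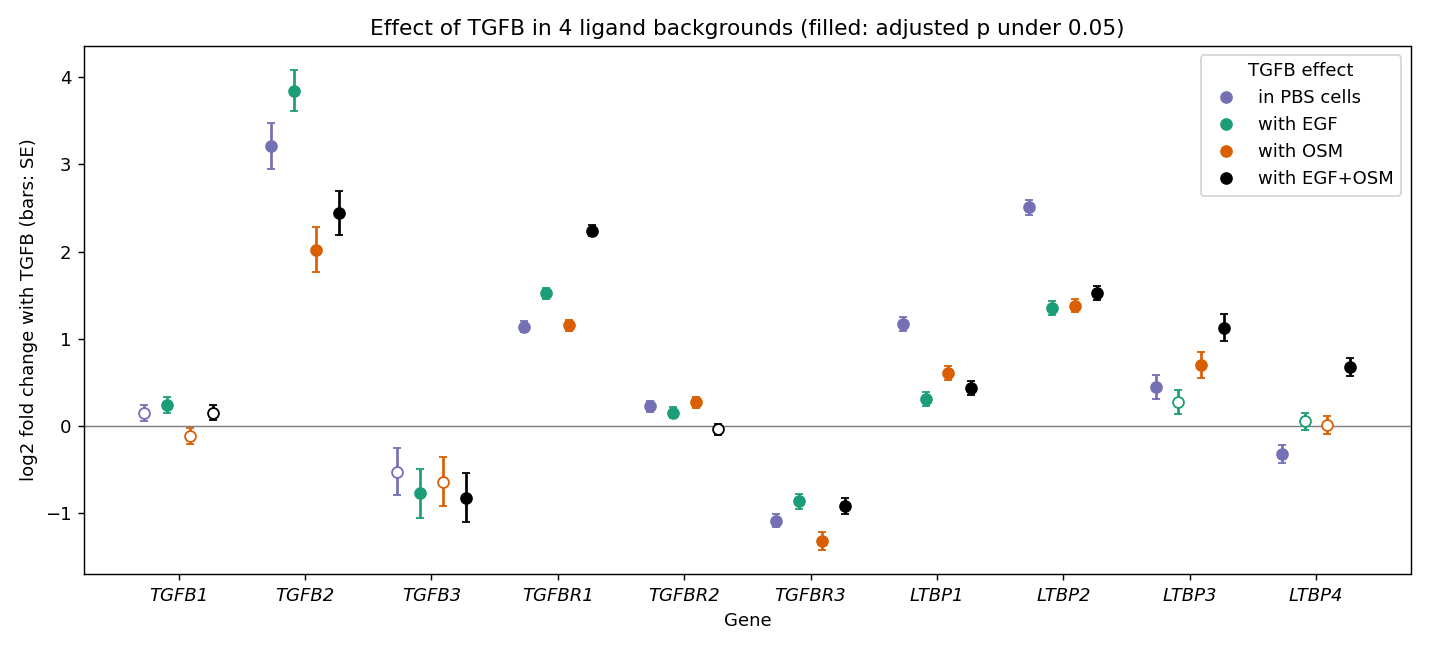
Log2 fold change with TGFB for each of the 10 genes in cells given PBS, EGF, OSM or EGF+OSM, each against the matched group without TGFB; bars are 1 SE and filled points have an adjusted p under 0.05. LTBP1 and LTBP2 moved most with TGFB alone (1.17 and 2.51), while TGFBR1, LTBP3 and LTBP4 moved most on EGF+OSM (2.24, 1.13 and 0.67).

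Counted over the 10 genes, the effect of TGFB differed from its effect alone in 3 with EGF (29.8% of all genes tested), 3 with OSM (23.3%) and 6 with EGF+OSM (44.4%). The shares of members lay near those of all genes or modestly above them. LTBP1 and LTBP2 were in each of the 3 sets, with the smaller effect in the combination every time. The 3 sets share the TGFB and PBS libraries, so this agreement is not that of independent tests. EGF+OSM departed from the sum of both single effects in 5 of the 10 genes, beside 38.7% of all genes. TGFBR1, TGFBR3, LTBP1 and LTBP2 were past the test there by more than 1 log2 unit, and the change with the pair was smaller than the sum of the single changes in each. TGFB1 (-0.31 ± 0.12, edgeR adjusted p = 0.0543) and TGFB2 (-0.996 ± 0.42, 0.0612) did not pass, but each did in some alternative runs.

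The 24 h in vehicle also moved these genes. PBS against T0 called 5 of the 10, 3 higher and 2 lower, beside 35.1% of all genes. LTBP1 went from 215, 194 and 197 CPM at T0 to 128, 118 and 105 in PBS, a change of -0.79 ± 0.084 (edgeR adjusted p = 7.25e-08). LTBP2 went from 57.1 ± 3.11 to 28.8 ± 3.19 CPM (-0.99 ± 0.083), and TGFBR3 from 38.1 ± 0.638 to 58.8 ± 0.996 CPM (0.63 ± 0.075). LTBP1 and LTBP2 thus fell and TGFBR3 rose over the hours without ligand, and against PBS every ligand moved each of the 3 the other way. Both comparisons use the same PBS libraries with opposite sign, which favours opposite directions. In level, all ligand groups also lay beyond T0 without overlap for these 3 genes, but no ligand group was tested against T0.

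Of the smaller changes from T0 to PBS, TGFBR2 was called (0.21 ± 0.065, edgeR adjusted p = 0.0126) and lost the call without T0 replicate 3 or PBS replicate 1 or 2 (0.0929, 0.0539 and 0.0765). TGFB2 was called at 0.95 ± 0.35 (0.0384), from 8 to 26 counts per library at T0. That value was 0.59 without PBS replicate 2 (0.279), and the call was also lost without T0 replicate 3 (0.182) or PBS replicate 1 (0.0652), with no filter on low counts (0.0904) and when only these groups were fitted (0.112).

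Levels of different genes can be compared only per length, here as CPM per kilobase of the gene's canonical transcript. On that scale TGFB1 made up 97.4% ± 0.423 of the ligand transcripts in PBS (SD, n = 3), TGFB2 0.519% ± 0.197 and TGFB3 2.08% ± 0.477. In EGF+TGFB TGFB2 reached 14.1% ± 3.38 and TGFB1 was at 85.0% ± 3.32. In no group did TGFB1 hold under that mean share, and the sum of the 3 ligands lay between 21.3 ± 0.818 (EGF) and 36.6 ± 3.96 (OSM) CPM per kilobase.

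TGFBR2 held 70.4% ± 1.99 of the receptor transcripts in PBS, TGFBR1 11.8% ± 0.864 and TGFBR3 17.7% ± 1.21. In OSM+TGFB the shares were 50.7% ± 1.77, 48.7% ± 1.79 and 0.542% ± 0.0920, so TGFBR1 and TGFBR2 stood nearly level per length (40.9 ± 2.05 and 42.6 ± 1.69 CPM per kilobase). The receptor sum went from 52.4 ± 2.77 CPM per kilobase in PBS to 101 ± 5.58 with all 3 ligands. For the binders, LTBP1 had 39.0% ± 4.03 in PBS, LTBP4 31.0% ± 4.02, LTBP3 22.7% ± 1.38 and LTBP2 7.39% ± 0.789. In OSM+TGFB LTBP1 had 65.5% ± 1.15 and LTBP2 26.2% ± 1.22 of a sum that had gone from 46.1 ± 0.344 to 223 ± 10.3 CPM per kilobase. LTBP3 and LTBP4 were left with shares of 2.58% ± 0.388 and 5.70% ± 0.0948.

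**Figure D4:**
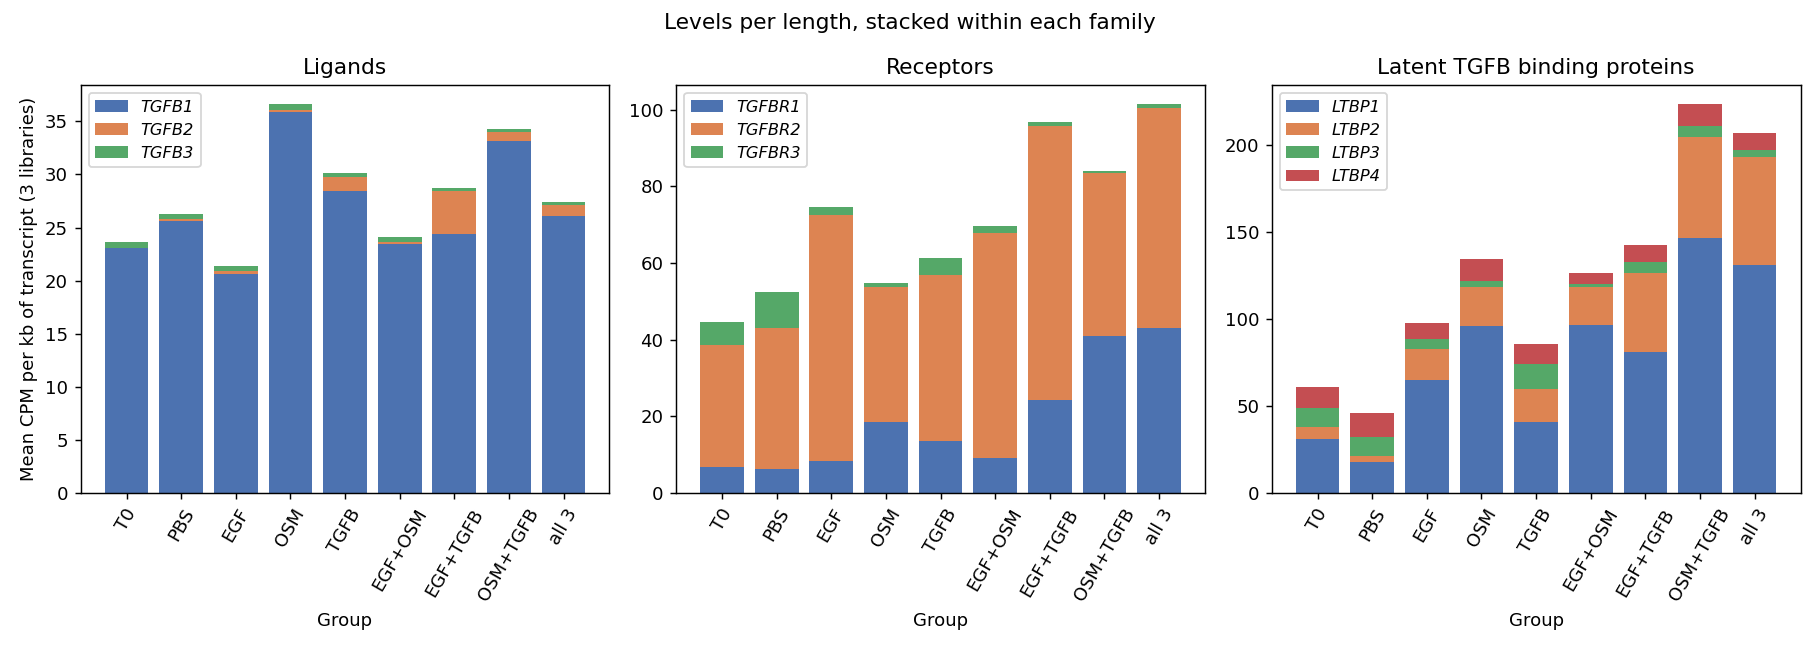
Mean level per length (TMM-scaled CPM per kilobase of canonical transcript) of the ligands, receptors and latent binders in the 9 groups, stacked by gene, 3 libraries per group. TGFB1 fills nearly the whole ligand bar, TGFBR1 widens from PBS to OSM+TGFB (6.19 to 40.9), and LTBP1 and LTBP2 make up most of the taller binder bars.

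Other genes of the pathway were taken from lists chosen with earlier results of these data known. Of 17 genes for maturation and release of latent TGFB, 15 were tested (LRRC32 and NRROS were not), and 12 rose with TGFB alone and 3 were not called, where 19.9% of all genes rose. Their median log2 fold change was 0.98. ITGB6, the beta chain of an integrin that frees latent TGFB1 at epithelia, rose from 122 ± 10.98 to 762 ± 52.7 CPM (2.65 ± 0.14, edgeR adjusted p = 3.45e-12). THBS1, a secreted activator, rose from 25.0 ± 3.50 to 183 ± 27.9 CPM, and ITGB3, another integrin beta chain, from 0.351 ± 0.107 to 8.54 ± 0.988. With EGF alone 9 of the 15 rose and 4 fell, where 34.9% of all genes rose and 38.6% fell. With OSM alone 10 rose and 4 fell, where 33.5% rose and 29.8% fell. THBS1 was higher with EGF (1025 ± 23.2 CPM) and OSM (346 ± 127) than with TGFB. ITGB3 was at 2.04 ± 0.924 with EGF and 8.73 ± 1.29 with OSM, and ITGB6 at 221 ± 36.2 and 624 ± 48.2.

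Of 12 matrix genes that scaffold the latent complex, 8 were tested (not FBLN2, ELN, ADAMTSL2 or ADAMTS10), and 5 rose with TGFB and 3 were not called, where 19.9% of all genes rose. Their median log2 fold change was 0.86. FN1 (fibronectin) rose from 132 ± 18.3 to 1964 ± 79.0 CPM (3.89 ± 0.20, edgeR adjusted p = 2.21e-12) and FBLN5 (fibulin 5) from 14.7 ± 0.454 to 55.2 ± 3.90. MFAP2, a microfibril protein, had 0 counts in all PBS libraries and 0.287 ± 0.133 CPM in TGFB, at least 4.03-fold over a floor of 3 counts per library. The median stays at 0.86 with MFAP2 at that bound. The fibroblast marker sum carried by COL1A1 and DCN was also higher in the TGFB libraries than in PBS (204 to 213 against 128 to 133 CPM), and its part in these counts was not tested. With EGF alone 4 of the 8 rose and 3 fell (34.9% and 38.6% of all genes), and with OSM 4 and 3 (33.5% and 29.8%). FN1 was at 647 ± 116 CPM with EGF and 356 ± 59.3 with OSM, and FBLN5 at 1.29 ± 0.169 and 2.07 ± 0.107. MFAP2 was at 0.660 ± 0.199 and 1.08 ± 0.266, above its level with TGFB.

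Of 17 co-receptors and receptor regulators, 16 were tested (not ACVRL1), and 8 rose and 2 fell with TGFB, where 19.9% of all genes rose and 15.8% fell. Their median log2 fold change was 0.29. Besides PMEPA1, which lowers receptor signalling, DAB2, an endocytic adaptor of the receptors, rose from 0.778 ± 0.220 to 3.49 ± 0.205 CPM and BAMBI, a decoy receptor, from 10.1 ± 0.138 to 21.0 ± 1.05 (1.06 ± 0.12, edgeR adjusted p = 5.31e-08). NEDD4L and USP15, enzymes that act on receptor ubiquitination, were the 2 that fell, and were named after their values were seen. With EGF alone 7 of the 16 rose and 7 fell (34.9% and 38.6% of all genes), and with OSM 10 and 5 (33.5% and 29.8%). DAB2 was at 3.64 ± 0.109 CPM with EGF and 15.1 ± 0.580 with OSM. PMEPA1 was at 193 ± 14.9 and 212 ± 12.6, and BAMBI at 7.15 ± 0.779 and 6.55 ± 0.820, under PBS.

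Over the 9 group means of log2 CPM, TGFBR3 ran opposite to LTBP1 (Pearson r -0.96) and to LTBP2 (-0.92). LTBP1 and LTBP2 ran together (0.93), as did TGFBR1 and LTBP2 (0.90). TGFB2 ran opposite to TGFB3 (-0.93), but TGFB3 covered only 2.13-fold at 19 to 99 counts, with neighbouring groups overlapping. Only the pairs of members past 0.90 in either direction are given. The 9 points share libraries and treatments and are a description. Among 4298 other genes with a mean of at least 1 CPM and an SD of at least 0.5 log2 units over the groups, the closest to LTBP2 were TAGLN2 (0.99) and VCAN (0.99), and to TGFBR1 ITGA5 (0.99) and FNDC3B (0.98). LTBP1 was closest to CTSC (0.99) and MAN1A1 (0.99), LTBP3 to UNC13D (0.99) and LURAP1L (0.99), and TGFBR3 to SLITRK5 (0.97) and ADIRF (0.97). TGFB2 was closest to C3orf52 (0.96) and BEND7 (0.96). TGFBR2, TGFB1, TGFB3 and LTBP4 had an SD under 0.5 themselves. TGFBR2 was closest to CD83 (0.97) and PHLDA2 (0.96), and the closest to the other three were WBP1L (0.97), LIAS (0.98) and NUTM2A (0.98). With 9 points and that many genes such values are reached easily.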

How the data were processed

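RNA-seq of 27 libraries, 3 in each of 9 groups assigned by their labels, was deposited by the authors as 1 table of estimated counts per Ensembl gene identifier, whole numbers with no scaling. All its library columns were matched to a sample (0 were not). The submitters' processing notes name Trim Galore 0.4.3, cutadapt 1.10, FastQC 0.11.5, kallisto 0.46.2 and R 3.5.0, and the GRCh38.p5 and hg38 builds. How the estimates were rounded, and the strand setting, are not given in the sources used here. The kit was stranded, per the labels' protocols.

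Rows were summed by symbol. Rows without one (7165, 0.324% of the counts) kept their identifier. edgeR 4.0.16 in R 4.3.3 was run with filterByExpr by group, TMM scaling (factors 0.867 to 1.12), a mean per group over all 27 libraries (18 residual degrees of freedom), robust quasi-likelihood fits and Benjamini-Hochberg adjustment over 15575 genes. The common biological coefficient of variation was 7.83%. Fold changes used a prior count of 0.125. The SE is the log2 fold change divided by the root of the F statistic. A difference between effects was tested as a contrast of 4 group means. Replicates differed beyond sampling noise (chi-square per degree of freedom 6.52 to 31.7). The fit was tested on simulated data. DESeq2 1.42.0 and the other alternatives are in the closing section.

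Lengths and gene spans came from GENCODE v44 on GRCh38, and windows before start sites from RefSeq on GRCh38.p14. The members and lists were chosen with earlier results of these data known. From each list the 3 called genes with the largest change with TGFB were named, and for each member the 2 genes with the highest correlation. Of the list of TGFB response genes, only PMEPA1 is reported here. Of the latter, PCBP3 (TGFB1), H4C15 (LTBP4) and, for TGFB3, an identifier without a symbol are given only here.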

Additional observations from a re-analysis of the deposited data

Results flagged for a closer look

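In each of the following the difference between effects was itself tested (edgeR's quasi-likelihood test of 4 group means, adjusted over all genes). The values are log2 differences, and a negative value is a smaller rise or a larger fall in the combination.

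EGF+OSM differed from the sum of EGF and OSM by -1.46 in TGFBR1, 2.89 in TGFBR3, -1.85 in LTBP1, -2.45 in LTBP2 and -0.41 in LTBP4. In TGFBR3 the positive value is a smaller fall. The LTBP4 value is the smallest of these and lost its call in 7 alternatives.

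The effect of TGFB with EGF differed from its effect alone by 0.38 in TGFBR1, -0.86 in LTBP1 and -1.15 in LTBP2. With OSM the difference was -1.18 in TGFB2, -0.56 in LTBP1 and -1.13 in LTBP2. The TGFB2 call was lost without the filter on low counts and without any 1 of several libraries, as given above. With EGF+OSM the difference was 1.10 in TGFBR1, -0.26 in TGFBR2, -0.73 in LTBP1, -0.98 in LTBP2, 0.68 in LTBP3 and 0.99 in LTBP4. The TGFBR2 call was lost without any 1 of several libraries, and the LTBP3 call without EGF+OSM+TGFB replicate 2. In TGFBR1 the effect of TGFB was larger in 2 of the 3 backgrounds, and in LTBP1 and LTBP2 it was smaller in all 3. The 3 backgrounds are set against the same TGFB and PBS libraries, so they are not independent.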

How the results depend on the processing

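No log2 fold change of the 10 genes changed sign as a call under any alternative run. Of 150 gene and comparison pairs, the side of the threshold changed in 1 with RLE size factors, 6 with upper-quartile scaling, 3 without the filter on low counts, 1 with rows as deposited, 4 with only the groups compared and 3 with DESeq2. The replicate block, with the replicate number from the titles, gave 3 further calls: -1.01 for TGFB2 (EGF+OSM against the sum), 0.28 for LTBP3 (TGFB added to EGF) and -0.60 for TGFB3 (TGFB added to OSM). It lost none. The numbers were not taken as pairs: deviations of same-numbered libraries correlated at -0.023 to 0.117 (median 0.041, 9 of 108 over 0.1). Yet 26 of 27 libraries correlated best with their own number. The library names carry the same numbers but do not say what they stand for. Over all genes, TGFB against PBS called 6226 with the block and 5551 without it. Leaving out 1 library changed the side in 65 of 1140 fits (43 lost, 22 gained) and moved a value by at most 0.36. The number of genes called then ran from 6 to 9 for TGFB against PBS (8 with all libraries). It ran from 3 to 5 for PBS against T0 (5 with all libraries, 3 without PBS replicate 2). For TGFB added to EGF it ran from 5 to 7 (8 with all, 5 without EGF replicate 2 or EGF+TGFB replicate 2). Fewer libraries entered these fits. Depth limits TGFB3 and, without TGFB, TGFB2, which had few counts.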
